A study of Mus musculus with 9 samples.

Results

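Retinoid metabolism and signaling were examined in mouse ear epidermis through 9 genes, found by their symbols among the 52550 genes of the count table. These were the uptake receptor Stra6, the binding protein Crabp2, the retinol-oxidizing enzymes Rdh10 and Dhrs9, the retinaldehyde dehydrogenases Aldh1a2 and Aldh1a3, the degrading enzyme Cyp26b1 and the nuclear receptors Rarg and Rxra. All 9 symbols were found. RNA came from intact epidermal sheets of the ears of wild type C57BL/6 mice aged 8 weeks, which the methods name C57BL/6J and state to be male. In the control group (VAS + H2O), Vaseline was put on the ears for 5 days and ddH2O was given by gavage for 10 days. The model group (IMQ + H2O) was treated with imiquimod, which activates Toll-like receptor 7, in place of Vaseline and had the same gavage of ddH2O. The third group (IMQ + XYF) received imiquimod and a gavage of 200 μl of the herbal decoction Xiao-Yin-Fang at 23.3 mg/g. Each group had 3 libraries. The methods state that RNA was taken from 2 mice without saying whether this is per library, so p-values measure only the spread between these libraries.

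Retinol reaches tissues bound to a plasma carrier, is taken up by cells and is oxidized first to retinaldehyde and then to retinoic acid. Retinoic acid is carried by small cytosolic proteins to nuclear receptors, which bind DNA as pairs of a retinoic acid receptor and a retinoid X receptor, and it is removed by cytochromes of the CYP26 family. In the epidermis retinoids are known to act on the growth and differentiation of keratinocytes, and retinoid drugs are used against psoriasis.

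Libraries held 30298275 to 64771160 counts on genes. CPM are counts scaled to a common library size. The floor of detection, for counting error only, was taken as 3 counts, or 0.0463 to 0.099 CPM on raw library totals. All other CPM values are after TMM normalization. The 6 keratinocyte markers summed to 36661 to 47365 CPM in VAS + H2O, 49485 to 60989 CPM in IMQ + H2O and 49842 to 55050 CPM in IMQ + XYF. Markers of dermis and cartilage differed between libraries. The 6 dermal fibroblast markers summed to 66.3, 624 and 99.8 CPM in replicates 1, 2 and 3 of VAS + H2O, to 44.6 to 51.7 CPM in IMQ + H2O and to 69.7 to 202 CPM in IMQ + XYF, and none was at 0 in every library. The 5 cartilage markers, 1 of them at 0 in every library, summed to 151 to 358 CPM, 29.8 to 69.4 CPM and 108 to 166 CPM. The 4 neutrophil markers summed to 10.7 to 12.7 CPM in VAS + H2O, 49.4 to 119 CPM in IMQ + H2O and 60.7 to 79.3 CPM in IMQ + XYF. Most of each sum was Cxcr2 alone, at 10.6 to 12.6 CPM, 49.2 to 80.7 CPM and 54.3 to 60.9 CPM in these groups. VAS + H2O replicate 2 stood apart by its dermal fibroblast markers, so results against the control group are also given without it. Fits with the dermal fibroblast and cartilage markers as a covariate are given with the results. Of the neutrophil markers, Ly6g and Mpo were at most at 0.509 and 0.256 CPM in any library. Csf3r was at 38.0 CPM in IMQ + H2O replicate 3 and 22.9 CPM in IMQ + XYF replicate 1, against 0.173 to 6.10 CPM in the other imiquimod libraries. Those 2 libraries also had the highest Crabp2 of their groups. In IMQ + H2O replicate 3 Dhrs9 and Aldh1a3 were also the highest of the group, and Stra6 lay between the others. In IMQ + XYF replicate 1, however, Dhrs9 and Stra6 were the lowest of the group, and Aldh1a3 lay between the others. Of the 4 markers of dendritic epidermal T cells, in IMQ + H2O against VAS + H2O, Cd3e (log2 fold change -0.73, adjusted p = 0.0209 in edgeR) and Cd3g (-0.82, adjusted p = 0.0236) fell, Thy1 rose (1.24, adjusted p = 0.00575) and Trdc did not pass (-0.53, adjusted p = 0.0518). The part of neutrophil and T cell markers in the results was not tested. In bulk RNA, fewer cells of a type and less RNA per cell cannot be told apart.

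Promoter windows of 250 bases before the annotated start, from RefSeq on GRCm38.p6, were matched for 6 of the 9 genes. Crabp2, Rdh10 and Aldh1a3 were not matched. Retinoic acid receptors and their partners bind repeats of the hexamers AGGTCA or GGGTCA or AGTTCA or GGTTCA, which were searched on both strands. At least 1 hexamer occurred in a window of Dhrs9, Rarg and Rxra, 3 of the 6 genes, against 11305 of all 27025 genes with windows. Counted by window, 38.6% of all 32851 hold at least 1. Direct repeats with 1, 2 or 5 bases between the hexamers are in 0.164%, 0.174% and 0.0883% of all windows and in no window of the 6 genes. A match is only a description of letters. Windows are shown for Dhrs9 and Stra6, which were higher under imiquimod, and for Rarg, the most abundant receptor. Each is written 5′ to 3′ on the strand of the gene, with any hexamer in capitals.
Dhrs9, chr2:69380212-69380461, plus strand: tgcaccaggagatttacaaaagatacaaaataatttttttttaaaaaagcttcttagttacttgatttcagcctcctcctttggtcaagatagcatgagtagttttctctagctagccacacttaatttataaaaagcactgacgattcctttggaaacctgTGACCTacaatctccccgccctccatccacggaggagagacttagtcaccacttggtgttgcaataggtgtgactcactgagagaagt
Stra6, the first of 4 starts, chr9:58128838-58129087, plus strand: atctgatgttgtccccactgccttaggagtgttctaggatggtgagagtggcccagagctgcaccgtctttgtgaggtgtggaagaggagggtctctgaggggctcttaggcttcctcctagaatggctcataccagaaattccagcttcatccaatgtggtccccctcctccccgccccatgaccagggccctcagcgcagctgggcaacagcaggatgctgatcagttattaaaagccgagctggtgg
Rarg, the first of 2 starts, chr15:102257523-102257772, minus strand: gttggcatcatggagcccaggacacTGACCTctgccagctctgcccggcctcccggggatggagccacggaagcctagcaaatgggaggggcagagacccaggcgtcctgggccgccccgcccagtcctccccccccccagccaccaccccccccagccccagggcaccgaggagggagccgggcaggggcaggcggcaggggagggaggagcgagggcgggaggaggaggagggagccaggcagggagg
The hexamer of Dhrs9 begins 88 bases before the start and that of Rarg 225 bases before it, both in reverse orientation. The Stra6 window holds none. Its RefSeq start lies 65300 bases inside the Stra6 position given below, and the other RefSeq starts of Stra6 lie further in. The outer start of that position was therefore not searched. The window of the second start of Rxra, 32852 bases inside the position given below, holds 3, beginning 105, 87 and 48 bases before it.

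Imiquimod was compared with Vaseline first. The uptake receptor, the retinoic acid binding protein, a retinol-oxidizing enzyme and a retinaldehyde dehydrogenase were higher in all 3 IMQ + H2O libraries than in any VAS + H2O library, while Cyp26b1 and the abundant receptors had log2 fold changes of -0.48 to -0.18 that did not pass the test. Of the 9 genes, 8 passed the filter on low counts and Aldh1a2 did not. In the quasi-likelihood test of edgeR, 4 of these 8 (Crabp2, Stra6, Dhrs9 and Aldh1a3) rose at an adjusted p of at most 0.05 and none fell. Over all 18009 genes tested, 22.1% passed, 12.7% upward and 9.41% downward. Of the 4, 3 also reached an absolute log2 fold change of 1, the additional cutoff that defines a differentially expressed gene (DEG), against 7.68% of all genes. The libraries of the groups did not overlap for 5 of the 8, against 45.0% of all genes. The median log2 fold change was 0.55 over the 8 genes and -0.03 over all genes. The genes were chosen with earlier results of these data known, so these contrasts with all genes are descriptions and cannot serve as support. Without VAS + H2O replicate 2, 2 of the 8 passed (Crabp2 and Dhrs9), where 1446 of 18608 genes passed, or 7.77%. With the mean level of the dermal fibroblast and cartilage markers as a covariate, 0 of the 8 passed, as did 0 of all genes.

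**Figure D1:**
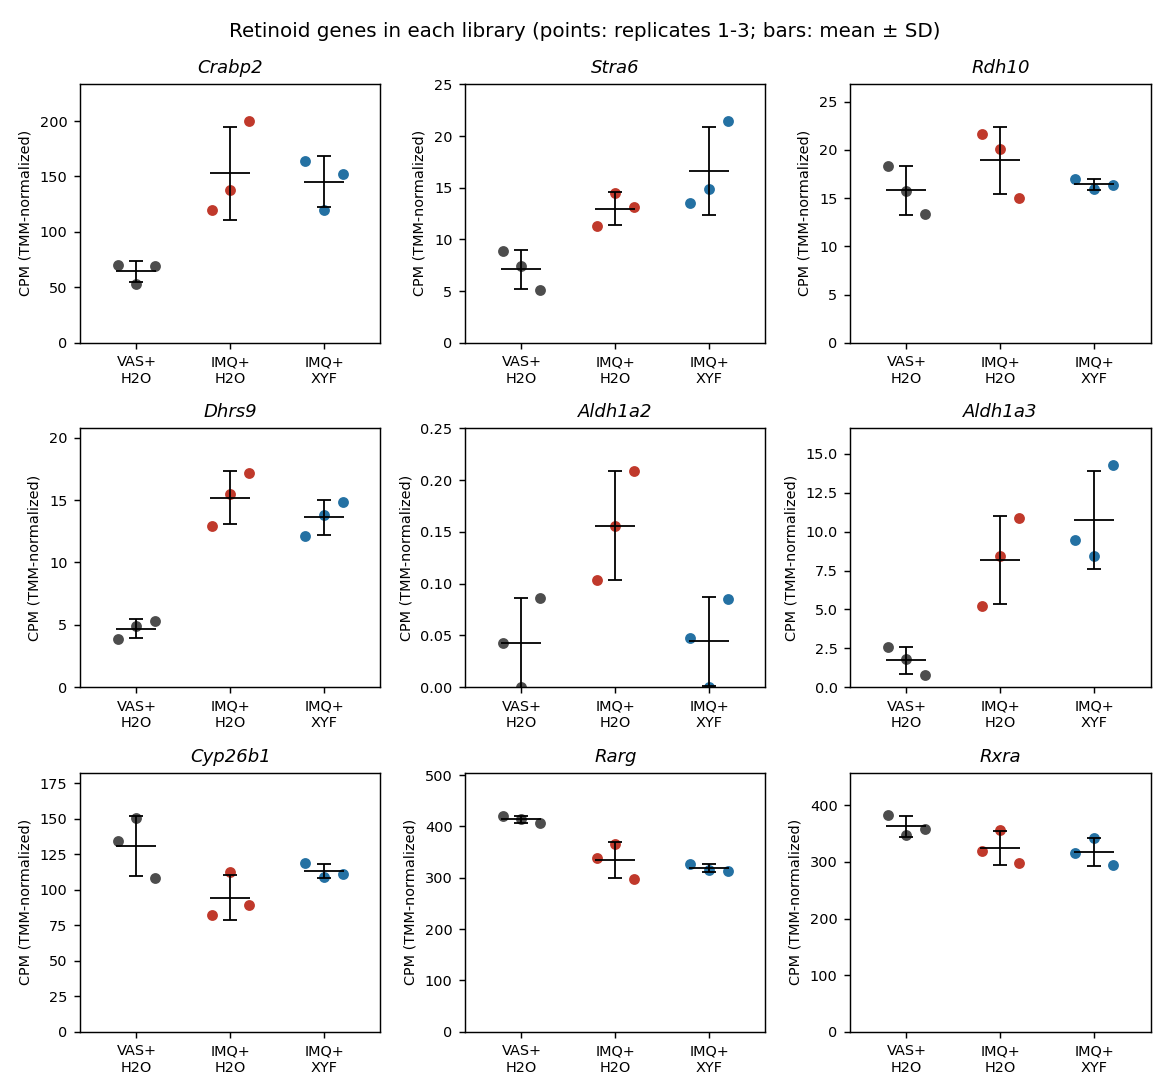
Level of each of the 9 genes in CPM (vertical axes, linear and starting at 0, with a different scale for each gene) in the 3 libraries of each group. Points are replicates 1 to 3 from left to right, and horizontal lines with bars are the mean ± SD. Crabp2, Stra6, Dhrs9 and Aldh1a3 lie higher in every imiquimod library than in any control library, with no gap between the IMQ + H2O and IMQ + XYF libraries.

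Stra6 (ENSMUSG00000032327, chr9:58063788-58153996 on GRCm38, plus strand) encodes the membrane receptor that takes up retinol from its plasma carrier. It was at 8.86, 7.41 and 5.11 CPM in VAS + H2O, at 11.3, 14.5 and 13.1 CPM in IMQ + H2O and at 13.5, 14.9 and 21.5 CPM in IMQ + XYF. Every imiquimod library was above every control library. Stra6 rose 1.80-fold in IMQ + H2O (log2 fold change 0.85, SE 0.22, adjusted p = 0.0383). That call rested on the whole set of libraries. It was lost in 5 of the 6 fits that left out 1 library, with log2 fold changes of 0.69 to 1.03, and held only without VAS + H2O replicate 1. Without VAS + H2O replicate 2 the log2 fold change was 0.89 with an adjusted p of 0.0948, within 0.00372 to 0.401 over all alternatives. The gene overlaps Ccdc33 on the opposite strand and Gm16131 on the same strand, and its exons overlap the exons of neither. Whether the counting used strand is not given in the sources used here, so reads from introns could not be told apart by strand for certain. Strand would not separate reads of Gm16131 in any case.

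Crabp2 (ENSMUSG00000004885, chr3:87948666-87953376, plus strand) encodes the cytosolic protein that hands retinoic acid to its receptors in the nucleus. Its levels were 70.4, 53.2 and 69.5 CPM in VAS + H2O, 120, 138 and 200.2 CPM in IMQ + H2O, and 164, 120 and 152 CPM in IMQ + XYF. The lowest imiquimod library stood well above the highest control library. Crabp2 rose 2.36-fold in IMQ + H2O (log2 fold change 1.24, SE 0.21, adjusted p = 0.0122). It passed the test in each of the 6 fits that left out a library, with log2 fold changes of 0.99 to 1.42, and without VAS + H2O replicate 2 with 1.12 (adjusted p = 0.0442, within 5.67e-07 to 0.333 over all alternatives). Its relative Crabp1 had no count in VAS + H2O and at most 0.88 CPM elsewhere, so that Crabp2 made up 99.5% to 100% of the pair in the means of the groups.

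Rdh10 (ENSMUSG00000025921, chr1:16105774-16133734, plus strand) and Dhrs9 (ENSMUSG00000027068, chr2:69380445-69404533, plus strand) encode enzymes that oxidize retinol to retinaldehyde. Rdh10 was at 18.4, 15.7 and 13.3 CPM in VAS + H2O, 21.6, 20.1 and 15.0 CPM in IMQ + H2O and 17.0, 15.9 and 16.4 CPM in IMQ + XYF. The groups overlapped, and Rdh10 did not pass the test in IMQ + H2O (log2 fold change 0.24, SE 0.18, adjusted p = 0.368). Dhrs9 was at 3.83, 4.95 and 5.33 CPM in VAS + H2O, 13.0, 15.4 and 17.2 CPM in IMQ + H2O, and 12.1, 13.8 and 14.9 CPM in IMQ + XYF. Its groups were far apart, the lowest imiquimod library being at 12.1 CPM and the highest control library at 5.33 CPM. Dhrs9 rose 3.20-fold (log2 fold change 1.68, SE 0.19, adjusted p = 0.00575) and passed in each of the 6 fits that left out a library, with log2 fold changes of 1.54 to 1.82. Without VAS + H2O replicate 2 it was 1.73 (adjusted p = 0.0232, within 1.14e-12 to 0.181 over all alternatives).

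Aldh1a2 (ENSMUSG00000013584, chr9:71215789-71296243, plus strand) and Aldh1a3 (ENSMUSG00000015134, chr7:66390890-66427517, minus strand) encode enzymes that oxidize retinaldehyde to retinoic acid, the step that commits retinol to signaling. Aldh1a2 was at the edge of detection, with 2, 0 and 3 counts in VAS + H2O, 3, 6 and 9 in IMQ + H2O and 3, 0 and 3 in IMQ + XYF. Most of these values do not exceed the floor of 3 counts, so no fold is given. Aldh1a3 was at 2.56, 1.82 and 0.803 CPM in VAS + H2O, 5.22, 8.43 and 10.9 CPM in IMQ + H2O and 9.48, 8.42 and 14.3 CPM in IMQ + XYF. Every imiquimod library was again above every control library, and the spread within groups was wide. Aldh1a3 rose 4.66-fold in IMQ + H2O (log2 fold change 2.22, SE 0.46, adjusted p = 0.0192), the largest log2 fold change among the 8 genes tested. It passed in 4 of the 6 fits that left out a library, with log2 fold changes of 1.92 to 2.62. Its adjusted p was 0.063 without VAS + H2O replicate 2 and 0.0537 without IMQ + H2O replicate 3, within 7.4e-06 to 0.339 over all alternatives.

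The retinaldehyde dehydrogenases were also compared with each other. Levels were divided by exon length, and Aldh1a3 was taken as a share of Aldh1a1, Aldh1a2 and Aldh1a3. The share was 37.3%, 21.9% and 18.4% in VAS + H2O, 63.1%, 73.3% and 82.9% in IMQ + H2O, and 75.6%, 69.0% and 82.2% in IMQ + XYF. Of these 3 genes, Aldh1a1 had the highest level in each control library and Aldh1a3 in each imiquimod library. The mean share was higher by 47.2 percentage points in IMQ + H2O than in VAS + H2O (exact two-sided permutation test, p = 0.1, the smallest that 3 against 3 libraries allow; adjusted p = 0.3 over 21 comparisons of shares). Aldh1a1 itself had a log2 fold change of -0.95 (SE 0.31, adjusted p = 0.0713), and its libraries did not overlap. The close relative Aldh1a7 was added to the family after the data were seen. It was at 4.35, 2.91 and 4.90 CPM per kb in VAS + H2O, 1.72, 2.08 and 1.56 in IMQ + H2O and 2.495, 2.93 and 2.35 in IMQ + XYF. Of the 4 genes, Aldh1a7 had the highest level in every library except replicate 3 of IMQ + H2O and replicate 3 of IMQ + XYF, where Aldh1a3 had. With Aldh1a7 counted, the share of Aldh1a3 was 9.50%, 8.37% and 2.98% in VAS + H2O, 32.2%, 39.97% and 53.6% in IMQ + H2O, and 39.4%, 32.8% and 50.7% in IMQ + XYF. The difference between the means of IMQ + H2O and VAS + H2O was then 34.9 percentage points. Whether Aldh1a7 oxidizes retinaldehyde was not examined here, so these are shares of transcript and not of enzyme activity.

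**Figure D2:**
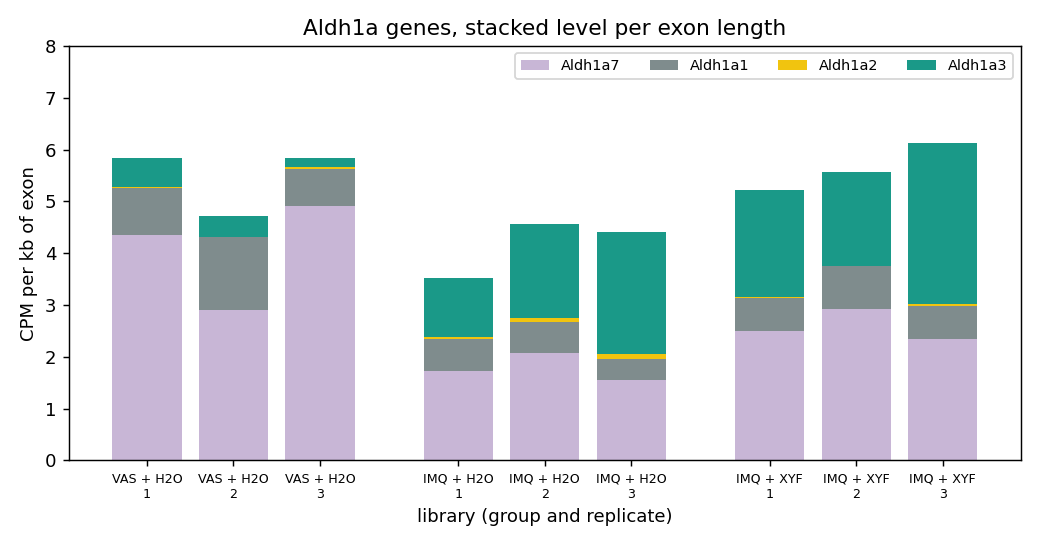
Levels of Aldh1a7, Aldh1a1, Aldh1a2 and Aldh1a3 in CPM per kb of exon (vertical axis, starting at 0), stacked for each of the 9 libraries (horizontal axis, by group and replicate). The Aldh1a3 part makes up 2.98% to 9.50% of the bar in VAS + H2O and 32.2% to 53.6% in the imiquimod groups, the Aldh1a7 part is the tallest in 7 of the 9 bars, and Aldh1a2 is a thin band or absent.

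Cyp26b1 (ENSMUSG00000063415, chr6:84571414-84593908, minus strand) encodes the cytochrome that breaks down retinoic acid. It was at 134, 150.3 and 108 CPM in VAS + H2O, 82.0, 112 and 89.0 CPM in IMQ + H2O and 118, 109 and 111 CPM in IMQ + XYF. IMQ + H2O replicate 2 reached into the range of the controls, so the groups overlapped. The log2 fold change was -0.48 (SE 0.16, adjusted p = 0.0774) and did not pass the test. DESeq2 did call it (adjusted p = 0.0415), as did a fit of all 9 libraries together (adjusted p = 0.0389), and the adjusted p ran from 0.0389 to 0.723 over all alternatives. Cyp26b1 supplied nearly all transcript of its family, 98.6%, 100% and 98.5% per exon length in VAS + H2O, IMQ + H2O and IMQ + XYF. Cyp26c1 had no count. Cyp26a1 had 0, 75 and 5 counts in VAS + H2O, none in IMQ + H2O and 87, 19 and 0 in IMQ + XYF. The libraries with the most Cyp26a1 in their group, VAS + H2O replicate 2 and IMQ + XYF replicate 1, also had the highest dermal fibroblast markers of their group, 624 and 202 CPM. IMQ + XYF replicate 1 was also the deepest library, with 64771160 counts. Whether Cyp26a1 is linked to either was not tested.

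Rarg (ENSMUSG00000001288, chr15:102234938-102257517, minus strand) encodes retinoic acid receptor gamma, and Rxra (ENSMUSG00000015846, chr2:27676440-27762957, plus strand) the retinoid X receptor that pairs with it. Rarg was at 420.4, 414 and 406 CPM in VAS + H2O, 338, 367 and 297 CPM in IMQ + H2O, and 327, 315 and 313 CPM in IMQ + XYF. All imiquimod libraries were below all control libraries. The log2 fold change in IMQ + H2O was -0.32 (SE 0.09) with an adjusted p of 0.0521, just outside the threshold. DESeq2, RLE scaling in edgeR and the fit of all 9 libraries put it inside, with adjusted p of 0.0281, 0.0481 and 0.0231, and the highest over all alternatives was 0.462. Rxra was at 383, 347 and 358 CPM in VAS + H2O, 319, 356 and 297 CPM in IMQ + H2O and 316, 343 and 294 CPM in IMQ + XYF. Its libraries overlapped between IMQ + H2O and VAS + H2O, and it did not pass (log2 fold change -0.18, SE 0.09, adjusted p = 0.209). Per exon length, Rarg held 90.7%, 91.7% and 91.8% of the retinoic acid receptor transcript and Rxra 85.4%, 85.0% and 85.5% of the retinoid X receptor transcript in VAS + H2O, IMQ + H2O and IMQ + XYF. Rarb and Rxrg had at most 5 counts in any library.

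The order of the genes was set on levels per exon length, as CPM per kb. In VAS + H2O it ran from Rarg (97.0 ± 1.67, SD, n = 3) through Rxra (66.4 ± 3.40), Crabp2 (48.7 ± 7.33), Cyp26b1 (24.4 ± 3.96) and Rdh10 (3.80 ± 0.611) to Stra6 (1.22 ± 0.325), Dhrs9 (1.10 ± 0.183), Aldh1a3 (0.374 ± 0.191) and Aldh1a2 (0.0189 ± 0.019). Stra6 and Dhrs9 lay within each other's SD. In IMQ + H2O Crabp2 (116 ± 31.8) had the highest mean. Within each of these libraries it was above Rarg (78.4 ± 8.19), though the SD ranges of these genes met. Rxra (59.4 ± 5.42) and Cyp26b1 (17.7 ± 2.98) followed. Rdh10 (4.55 ± 0.835) and Dhrs9 (3.55 ± 0.493) could not be separated there, nor could Stra6 (2.23 ± 0.279) and Aldh1a3 (1.77 ± 0.615). In IMQ + XYF Crabp2 (110 ± 17.2) stood above Rarg (74.8 ± 1.78), Rxra (58.2 ± 4.47) and Cyp26b1 (21.1 ± 0.926). Rdh10 (3.95 ± 0.132) came next, and Dhrs9 (3.18 ± 0.323), Stra6 (2.86 ± 0.729) and Aldh1a3 (2.33 ± 0.68) followed, each within the SD of its neighbour. Within each IMQ + XYF library, however, Stra6 was above Aldh1a3.

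The imiquimod groups with and without XYF were then compared, the question being whether the decoction moved these genes. In edgeR, 0 of the 8 genes tested passed, 0 had an unadjusted p under 0.05, and DESeq2 also called 0. Over all 17793 genes tested, 5 passed, or 0.0281%, and 966 had an unadjusted p under 0.05 in edgeR. No gene of the 8 had libraries that did not overlap, against 10.7% of all genes. The 95% intervals are those of this fit and cover no other choice of libraries or covariates. The log2 fold change of Crabp2 was -0.07 (-0.56 to 0.43) and that of Dhrs9 was -0.15 (-0.49 to 0.18). Those of Stra6 and Aldh1a3 were 0.36 (-0.11 to 0.83) and 0.39 (-0.34 to 1.13). Cyp26b1 had 0.26 (-0.03 to 0.55) and Rdh10 -0.19 (-0.55 to 0.16). The receptors had the narrowest intervals, with -0.06 (-0.28 to 0.15) for Rarg and -0.02 (-0.25 to 0.20) for Rxra. With the dermal fibroblast and cartilage markers as a covariate, log2 fold changes were 1.41 for Stra6 (SE 0.37), 1.56 for Aldh1a3 (SE 0.75) and 0.36 for Dhrs9 (SE 0.39), and none of the 8 passed, as did 0 of all genes. When 1 library was left out, Aldh1a3 ranged from 0.13 to 0.65 and Stra6 from 0.13 to 0.48. Crabp2 ranged from -0.22 to 0.17, Rarg from -0.15 to 0.01 and Rxra from -0.09 to 0.05. The signs of Crabp2, Rarg and Rxra thus depended on the libraries used.

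**Figure D3:**
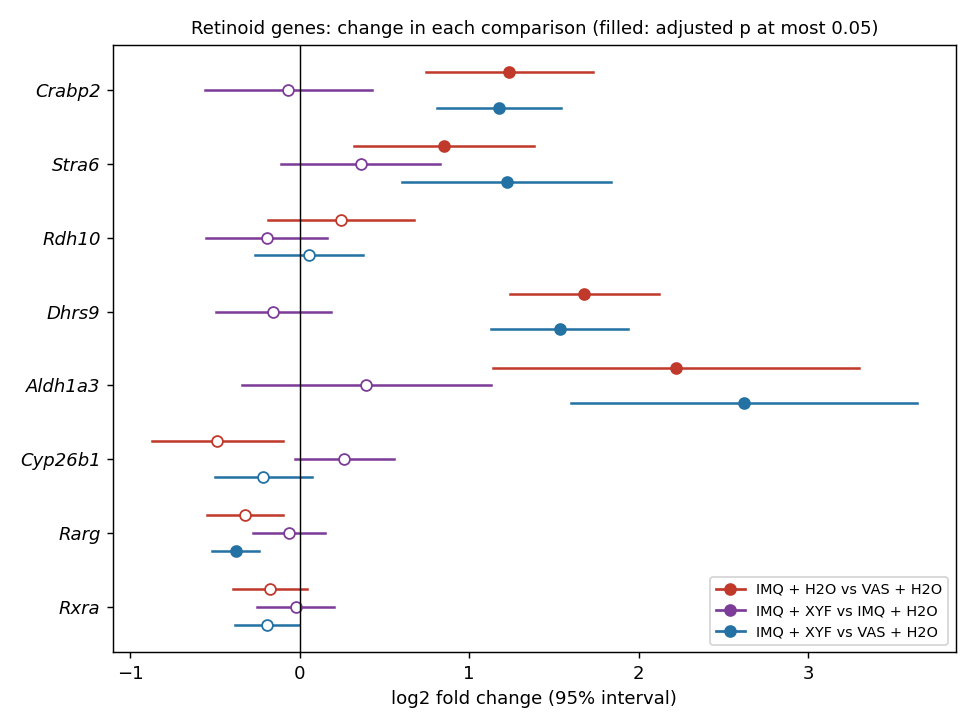
Log2 fold change (horizontal axis) of the 8 genes that passed the filter on low counts, in each of the 3 comparisons. Points are estimates of edgeR, lines are 95% intervals, and filled points have an adjusted p of at most 0.05. All 8 points of IMQ + XYF against IMQ + H2O are open, and Crabp2, Stra6, Dhrs9 and Aldh1a3 are filled and above 0 in both comparisons with VAS + H2O.

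IMQ + XYF was also compared with VAS + H2O, which shares its control libraries with the first comparison, so the values stand side by side and are not independent. Of the 8 genes, 5 passed, with 4 higher and 1 lower, where 28.7% of 17954 genes passed, 16.7% upward and 12.0% downward. DEGs were 4 of the 8, against 7.64% of all genes. The libraries did not overlap for 6 of the 8, against 47.5% of all genes. Here too the contrasts with all genes are descriptions, as the genes were chosen with earlier results known. Aldh1a3 rose 6.16-fold (log2 fold change 2.62, SE 0.43, adjusted p = 0.00593). Dhrs9 rose 2.89-fold (1.53, SE 0.17, adjusted p = 0.00171), Stra6 2.33-fold (1.22, SE 0.26, adjusted p = 0.0145) and Crabp2 2.26-fold (1.18, SE 0.15, adjusted p = 0.0029). Rarg fell, with a log2 fold change of -0.38 (SE 0.06, adjusted p = 0.00502). Rdh10 (0.06, adjusted p = 0.776), Cyp26b1 (-0.21, adjusted p = 0.231) and Rxra (-0.19, adjusted p = 0.119) did not pass. These 5 calls held in each of the 6 fits that left out a library, VAS + H2O replicate 2 included.

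The rest of the pathway was described with 62 other retinoid genes and retinoid-responsive genes, also chosen with earlier results of these data known. In IMQ + H2O against VAS + H2O, 47 were tested, 7 rose, 7 fell and 33 did not pass, where 22.1% of all genes passed, 12.7% upward and 9.41% downward. The median log2 fold change was -0.09, against -0.03 over all genes. Without VAS + H2O replicate 2, 7 passed, where 7.77% of all genes did. Which of the genes named below kept their call in that fit is not given, so each of these calls may depend on that library. Among the 6 binding proteins tested, 3 rose and 1 fell. Fabp5, which carries fatty acids and can carry retinoic acid, rose 3.47-fold, from 492 to 525 CPM in VAS + H2O to 1344 to 2185 CPM in IMQ + H2O (adjusted p = 0.00506). The cellular retinol carrier Rbp2 rose 6.82-fold (log2 fold change 2.77, adjusted p = 0.00698), while Rbp4, the gene of the plasma retinol carrier, fell (-1.18, adjusted p = 0.0349).

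For uptake and storage, 9 genes were tested. Scarb1, a receptor that takes up carotenoids among other lipids, rose (log2 fold change 0.90, adjusted p = 0.0288), and Bco1, which cleaves beta-carotene to retinaldehyde, fell (-1.50, adjusted p = 0.0258). Of the 14 enzymes tested that interconvert retinol and retinaldehyde, 2 rose and 1 fell. Rdh16 (1.22, adjusted p = 0.00957) and Adh7 (0.60, adjusted p = 0.0469), which can oxidize retinol, rose, and Dhrs3, which reduces retinaldehyde back to retinol, fell (-0.45, adjusted p = 0.0473). Aldh1a7, a relative of Aldh1a1, fell (-1.19, adjusted p = 0.0171).

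Among 9 nuclear receptors and cofactors tested, Ppard rose 2.02-fold (log2 fold change 1.01, adjusted p = 0.0134). It encodes the receptor PPAR delta, to which Fabp5 delivers its ligands. The retinoic acid receptor Rara (-0.52, adjusted p = 0.0174) and the coactivator Ncoa1 (-0.36, adjusted p = 0.049) fell. Of 7 retinoid-responsive genes tested, Rarres1, named for its response to a retinoid drug, fell from 63.6 to 102 CPM in VAS + H2O to 32.5 to 44.3 CPM in IMQ + H2O (-1.12, adjusted p = 0.0148). The other 6 did not pass, among them Hbegf (1.27, adjusted p = 0.0558). Lrat, which esterifies retinol for storage, had no count in VAS + H2O and at most 19 counts in any other library.

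**Figure D4:**
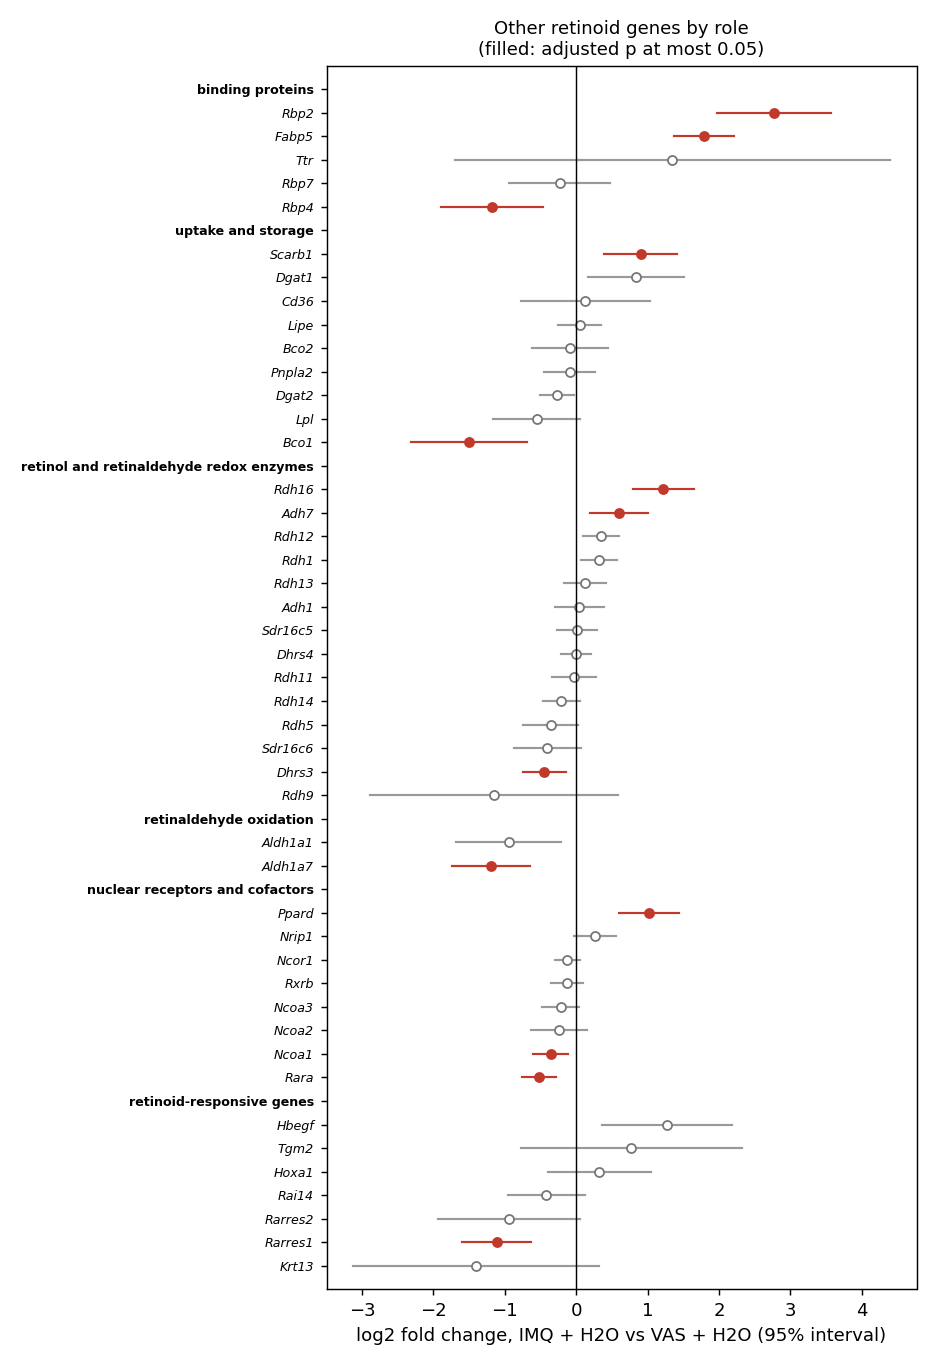
Change on the log2 scale (horizontal axis, IMQ + H2O relative to VAS + H2O) of 45 of the 47 other retinoid and retinoid-responsive genes tested, grouped by role (bold headings). Points are estimates of edgeR, lines are 95% intervals, and filled red points have an adjusted p of at most 0.05. There are 6 filled points above 0 and 7 below it.

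In IMQ + XYF against IMQ + H2O, edgeR and DESeq2 each called 0 of these genes. In edgeR 2 of the 47 tested had an unadjusted p under 0.05, as had 966 of all 17793 genes, so these 2 do not stand out by number. Those were Bco2, which also cleaves carotenoids (log2 fold change -0.99, adjusted p = 0.475), and Aldh1a7 (0.54, adjusted p = 0.751). Bco2 was at 1.33 to 1.61 CPM in VAS + H2O, 1.28 to 1.57 CPM in IMQ + H2O and 0.66 to 0.77 CPM in IMQ + XYF, so that its XYF libraries lay below all others. In IMQ + XYF against VAS + H2O, 46 were tested, 8 rose and 8 fell, with a median log2 fold change of -0.19, where 28.7% of all genes passed, 16.7% upward and 12.0% downward. Fabp5 (1.63), Rbp2 (2.65), Scarb1 (0.81), Rdh16 (0.95) and Ppard (0.94) were higher here too on the log2 scale, joined by Dgat1 (0.74) and Rdh12 (0.24). Bco1 (-1.29), Dhrs3 (-0.40), Rara (-0.58) and Rarres1 (-1.28) were lower, as were Bco2 (-1.07), Rdh5 (-0.54) and Ncoa2 (-0.35).

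Crabp2 and Fabp5 were set against each other because they carry retinoic acid to different receptors, a pairing chosen after their values were seen. Per exon length, Crabp2 was 26.6%, 22.3% and 27.6% of their sum in VAS + H2O, 15.5%, 21.7% and 19.8% in IMQ + H2O and 20.7%, 18.5% and 20.8% in IMQ + XYF. Every imiquimod library had a lower share than every control library, by 6.50 percentage points in the means of IMQ + H2O (exact two-sided permutation test, p = 0.1, the smallest possible; adjusted p = 0.3 over 21 comparisons of shares). The size of these shares depends on the lengths used, 3567 bases over all annotated exons of Fabp5 and 1322 for Crabp2. Before division by length, mean CPM of Crabp2 and Fabp5 were 64.3 and 505 in VAS + H2O and 153 and 1766 in IMQ + H2O. Reads of Fabp5 may be shared with near-identical pseudogenes, so its level is uncertain.

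For the 4 genes whose group means spanned at least 1 on the log2 scale, the genes with the most similar pattern over the 9 libraries were found by the root mean square difference of centred log2 CPM. Nearest to Crabp2 were Utp4 (0.12), Galnt3 (0.12) and Gm10108 (0.14). Nearest to Dhrs9 were Gch1 (0.12), Ston2 (0.13) and Itgb6 (0.16). Aldh1a3 was most like Artn (0.18), Gsdma3 (0.20) and Prss22 (0.27), and Stra6 most like Dpf1, Cst6 and 1700120C14Rik (0.21 to 0.22). These are descriptions over libraries that share treatment and tissue make-up.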

How the data were processed

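The authors deposited whole-number counts per gene for 9 epidermal libraries, without normalization. The submitters' processing notes name STAR 2.5 and GRCm38, and the methods name Ensembl annotation. The labels call the libraries strand-specific, whereas the methods name the TruSeq RNA Library Prep Kit v2, and StringTie for transcript assembly. The tool behind the counts and its strand setting are not given in the sources used here. Dermal libraries were not analysed here.

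Groups came from the labels. Each pair of groups was fitted on its 6 libraries in R 4.3.3 with edgeR 4.0.16 (TMM, filterByExpr defaults, quasi-likelihood test), with Benjamini-Hochberg adjustment over all genes tested. CPM used TMM factors, and log2 CPM a prior count of 2. Shares were compared by exact permutation. Positions and exon lengths came from GENCODE M21.

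All 9 genes were named. From the other lists, at most 6 genes per list and comparison that passed were named, by smallest adjusted p, with paralogs used in shares and the 3 nearest patterns. The names and values of 2 genes of these lists are not reported here, though the counts include them. Members and lists were chosen with earlier results of these data known.

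On simulated data for IMQ + H2O against VAS + H2O (18009 genes), 100 genes were changed by 1 and 100 by 2 on the log2 scale. Of these, edgeR recovered 45% and 72%, with 3 false calls. DESeq2 recovered 70% and 82%, with 51 false calls. In the data 22.1% of genes passed in edgeR, a far larger part than was changed in the simulation, so recovery in the data may differ. Alternatives were DESeq2 1.42.0, RLE factors, other filters, all libraries in 1 fit, a replicate block, a marker covariate, Aldh1a7 added to its family (chosen after seeing the data), the DEG cutoff and leaving out each library.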

Additional observations from a re-analysis of the deposited data

How the results depend on the processing

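No log2 fold change of the 8 genes that was called turned its direction under any alternative. With the mean of the dermal fibroblast and cartilage markers as a covariate, IMQ + H2O against VAS + H2O gave 0 calls among the 8 genes, 0 among the other retinoid genes and 0 among all genes, so that fit ended every call in the table. The covariate takes 1 degree of freedom and differs between these groups. In IMQ + XYF against VAS + H2O the same covariate kept 5 of the 8. With the DEG cutoff, all genes gave 1383 in IMQ + H2O and 1371 in IMQ + XYF against VAS + H2O, and the other retinoid genes 9 and 6.

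When 1 library was left out, calls in IMQ + H2O against VAS + H2O ranged from 2 to 4 for the 8 genes, from 7 to 11 for the other retinoid genes and from 1446 to 3077 for all genes. The lowest of these came without VAS + H2O replicate 2, and 2 of the 8 also passed without IMQ + H2O replicate 3. In IMQ + XYF against VAS + H2O they ranged from 5 to 6, from 10 to 15 and from 3221 to 4544. In IMQ + XYF against IMQ + H2O all genes gave 0 to 5 calls, 165 by DESeq2, 1 with all 9 libraries in 1 fit, 0 with the marker covariate and 0 with the replicate block, and the 8 genes gave 0 in each.

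Same-numbered libraries did not deviate together (correlations of -0.133 to 0.105), so the numbers were not taken to pair the samples. With the replicate block, IMQ + H2O against VAS + H2O gave 3 calls among the 8 genes, 13 among the other retinoid genes and 3002 over all genes. Cyp26b1 was then inside the threshold (adjusted p = 0.0483), and Stra6 (0.0675) and Aldh1a3 (0.0617) outside. In IMQ + XYF against VAS + H2O the block gave 4 of the 8, 13 and 3753. Cyp26b1 passed in IMQ + XYF against VAS + H2O without VAS + H2O replicate 3 (adjusted p = 0.0405).

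With Aldh1a7 added to the family, the share of Aldh1a3 differed by 34.9 points between IMQ + H2O and VAS + H2O and by 34.0 points between IMQ + XYF and VAS + H2O. Without division by exon length, the share of Aldh1a2 in its family differed by -1.11 points between IMQ + XYF and IMQ + H2O, and that of Crabp2 in the sum with Fabp5 by -3.26 points between IMQ + H2O and VAS + H2O. In the simulation edgeR called 45% of the genes changed by 1 on the log2 scale, and smaller changes were not simulated. Aldh1a2 is too low to compare.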
